A study of Mus musculus with 18 samples.

Results

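The difference in gene expression between high and low performing mice was compared between 2 brain tissues, labelled MDTH and HPF and taken as thalamus and hippocampus. The series asked which genes underlie variation in short-term memory in Diversity Outbred mice, each of which carries its own mosaic of several founder genomes, and its title points to an orphan receptor of the thalamus. Of its 18 RNA sequencing libraries, the 12 from these tissues were used, with 3 libraries in each of 4 groups: MDTH of high performers, MDTH of low performers, HPF of high performers and HPF of low performers. No group carried a drug, transgene or induced mutation according to the labels, and age, sex, the memory task and the line between high and low performance are not stated in those sources. The 18196 of 48440 genes with a mean of at least 10 normalized counts over the 12 libraries were tested. The lowest mean kept was 10.01 and the highest left out was 9.997.

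The thalamus relays signals to the cortex through glutamatergic relay neurons, and its mediodorsal part is reciprocally connected with the prefrontal cortex and takes part in working memory. The hippocampus is a chain of subfields (dentate gyrus, CA3, CA2, CA1) in which each subfield, and each position along the long axis, expresses its own genes. Reticular, habenular and zona incerta neurons lie beside the thalamic relay nuclei, and the choroid plexus lies beside both tissues, so a dissected piece of either can hold neighbouring cells.

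Estimated depth was 42940312 to 47535071 reads in MDTH and 76702949 to 88628752 in HPF. A list of 24 thalamic relay genes had sums between 288857 and 572838 normalized counts in MDTH and between 33013 and 64763 in HPF. A list of 25 hippocampal subfield genes summed to 79851 to 121239 in MDTH and 134679 to 157980 in HPF, a far narrower gap. Its member C1ql2, a gene of dentate granule cells, lay between 95.1 and 404 in MDTH and between 2962 and 5234 in HPF. Its members Bok, Cpne4 and Iyd, in high performers, were higher in MDTH than in HPF. The hippocampal list thus set the tissues apart less clearly than the relay list did. HPF high replicate 2 stood apart: its choroid plexus and ependymal list summed to 167356, against 4881 to 9913 in the other HPF libraries, and its relay list to 64763, against 33013 to 41685. MDTH low replicate 1 had the highest sum of thalamic reticular and zona incerta genes in MDTH, 27619 against 3947 to 10044. All MDTH libraries carried 1 lane label, but high and low performers there differ without exception in the style of the library name, so style and performance cannot be told apart. Numbers in the library names recur between the tissues for 4 MDTH and HPF pairs, and the labels do not say which libraries came from separate animals, so the p-values speak of the spread among these libraries, which may be technical. HPF libraries came from lanes 3, 4 and 5, and lane 4 alone held both a high and a low performer.

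The interaction asked whether the high minus low difference of a gene was larger in MDTH than in HPF. It is (MDTH high minus MDTH low) minus (HPF high minus HPF low) on the log2(normalized count + 1) scale, so a value above 0 means that high performers stood relatively higher in MDTH. A gene is said to have passed where limma's adjusted p was below 0.05. The interaction passed for 3284 genes, 18.05% of those tested, 1754 above 0 (9.64%) and 1530 below 0 (8.41%). It exceeded 2-fold for 1207 of them and 4-fold for 455, against a median over all genes of -0.02.

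Most of the interaction came from MDTH. The MDTH difference was the larger in size for 2853 of the 3284 genes (86.9%), and the HPF difference for 431. Tested alone in the same fit, performance passed for 5293 genes in MDTH (29.1%) and for 68 in HPF (0.374%, of which 29 were higher and 39 lower in high performers). At an unadjusted p below 0.05, 2541 genes differed in HPF. The median size of the difference was 0.35 in MDTH and 0.18 in HPF on the log2 scale. Differences had opposite signs in 2637 of the 3284 genes (80.3%), against 9300 of all 18196 tested (51.1%), a contrast to which the interaction itself selects. In 638 of the 3284, both tissues had an unadjusted p below 0.05 with opposite signs, 401 higher in MDTH and lower in HPF, and 237 the reverse.

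**Figure D1:**
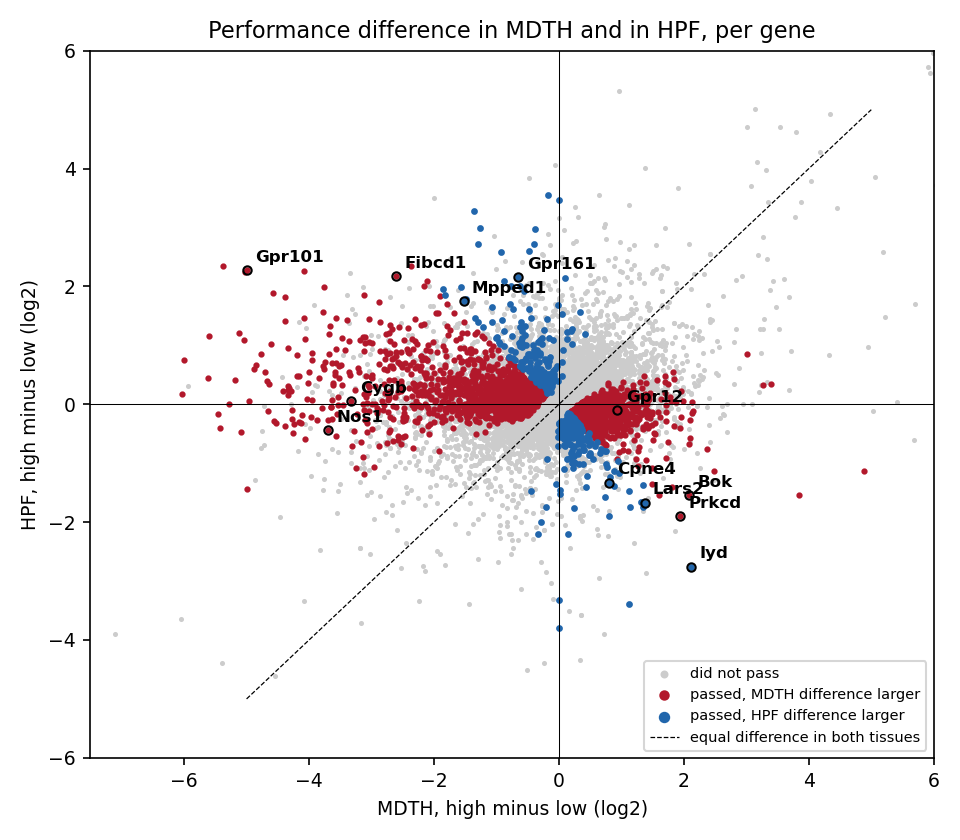
Each point is 1 of the 18196 tested genes, with the high minus low difference in MDTH on the x axis and in HPF on the y axis, both log2. Red and blue genes passed the interaction (3284), the dashed line marks equal differences, 10 genes fall outside the plotted range, and the coloured cloud is spread more along the x axis than along the y axis.

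Leaving out 1 library at a time gave 2022 to 3418 interactions, with the lowest count without MDTH low replicate 3. The sign was the same in all 12 of these fits for 3259 of the 3284 genes. Without the choroid-rich HPF high replicate 2, 3073 passed, and without MDTH low replicate 1, 3345. The HPF count moved most, from 68 to 8 without HPF high replicate 3, 9 without MDTH low replicate 2, 11 without HPF low replicate 1, 17 and 18 without MDTH high replicates 3 and 2, 26 without MDTH low replicate 3 and 31 without HPF low replicate 2. The MDTH count was 3521 without MDTH low replicate 3. Restricting HPF to lane 4, 1 library of each kind, left 276 interactions. All 73 passing genes named here kept their sign there. Relative to all libraries, the interaction was 0.911 to 1.72 times as large in those that also passed (median 1.04). In the others, which each paragraph names, it was 0.785 to 1.31 times as large (median 1.04). That fit keeps every MDTH library, shares its HPF libraries with the full fit and covers genes chosen because they passed. Agreement of sign and size was thus largely built in, and the part of lane was not tested.

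Genes known for their pattern across hippocampal subfields included several that moved in opposite directions in the 2 tissues. Of 25 such genes, 5 passed above 0 and 5 below 0 (20% each, against 9.64% and 8.41% of all genes). The median interaction was 0.10, against -0.02 for all genes. Iyd, which encodes an enzyme that recovers iodide from iodotyrosines, had the smallest p of the whole comparison. It lies on chr10:3540240-3554877, plus strand, in the GENCODE M21 annotation of GRCm38. Its normalized counts were 337, 259 and 359 in MDTH high, 79.7, 64.0 and 72.4 in MDTH low, 59.7, 74.8 and 69.6 in HPF high and 489, 521 and 388 in HPF low. High performers were thus 4.42-fold higher in MDTH and 6.85-fold lower in HPF, without overlap in either tissue. The log2 interaction was 4.87 (SE 0.28, adjusted p = 3.18e-05), and Iyd passed in MDTH (adjusted p = 8.02e-05) and in HPF (adjusted p = 3.55e-04) alone.

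Cpne4, a calcium-dependent membrane-binding protein of the copine family, followed the same order at far higher levels. It held 10295, 11523 and 13068 normalized counts in MDTH high and 7034, 5901 and 7111 in MDTH low, but 8208, 6006 and 5656 in HPF high and 18348, 16986 and 14205 in HPF low. No high library overlapped a low one in either tissue, and the log2 interaction was 2.13 (SE 0.21, adjusted p = 5.16e-04). Bok, a pro-apoptotic member of the Bcl-2 family, was chosen here after its values were seen. It was 4.01-fold higher in high performers in MDTH (6420 ± 551 against 1601 ± 620, SD, n = 3 each) and 2.74-fold lower in HPF (1811 ± 749 against 4958 ± 1012, SD, n = 3 each), with a log2 interaction of 3.62 (SE 0.48, adjusted p = 0.00162). In HPF alone Bok did not pass (adjusted p = 0.0744).

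Of the 5 members below 0, Mpped1, Fibcd1 and C1ql2 were lower in MDTH and higher in HPF of high performers. Mpped1 and Fibcd1 are both known from CA1. Mpped1, a metallophosphoesterase-domain protein, held 718, 429 and 459 normalized counts in MDTH high and 1531, 1561 and 1421 in MDTH low, and in HPF 8274, 6567 and 11994 in high against 2213, 3586 and 2146 in low performers. Each high library lay below each low one in MDTH and above it in HPF, and the log2 interaction was -3.28 (SE 0.37, adjusted p = 7.52e-04). Fibcd1, a receptor that binds acetylated sugars such as chitin, was chosen after its values were seen and had a log2 interaction of -4.78 (SE 0.66, adjusted p = 0.00185). Its HPF level was 6196 ± 1134 in high and 1411 ± 512 in low performers, and its MDTH level 250 ± 139 and 1578 ± 843 (SD, n = 3 each), again without overlap in either tissue. C1ql2, a secreted synaptic organizer of dentate mossy fibres, fell in MDTH (adjusted p = 1.58e-04) and was 1.52-fold higher in HPF, where it did not pass (adjusted p = 0.131). In lane 4 alone, Fibcd1 (adjusted p = 0.0616) and C1ql2 (adjusted p = 0.0514) did not pass.

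**Figure D2:**
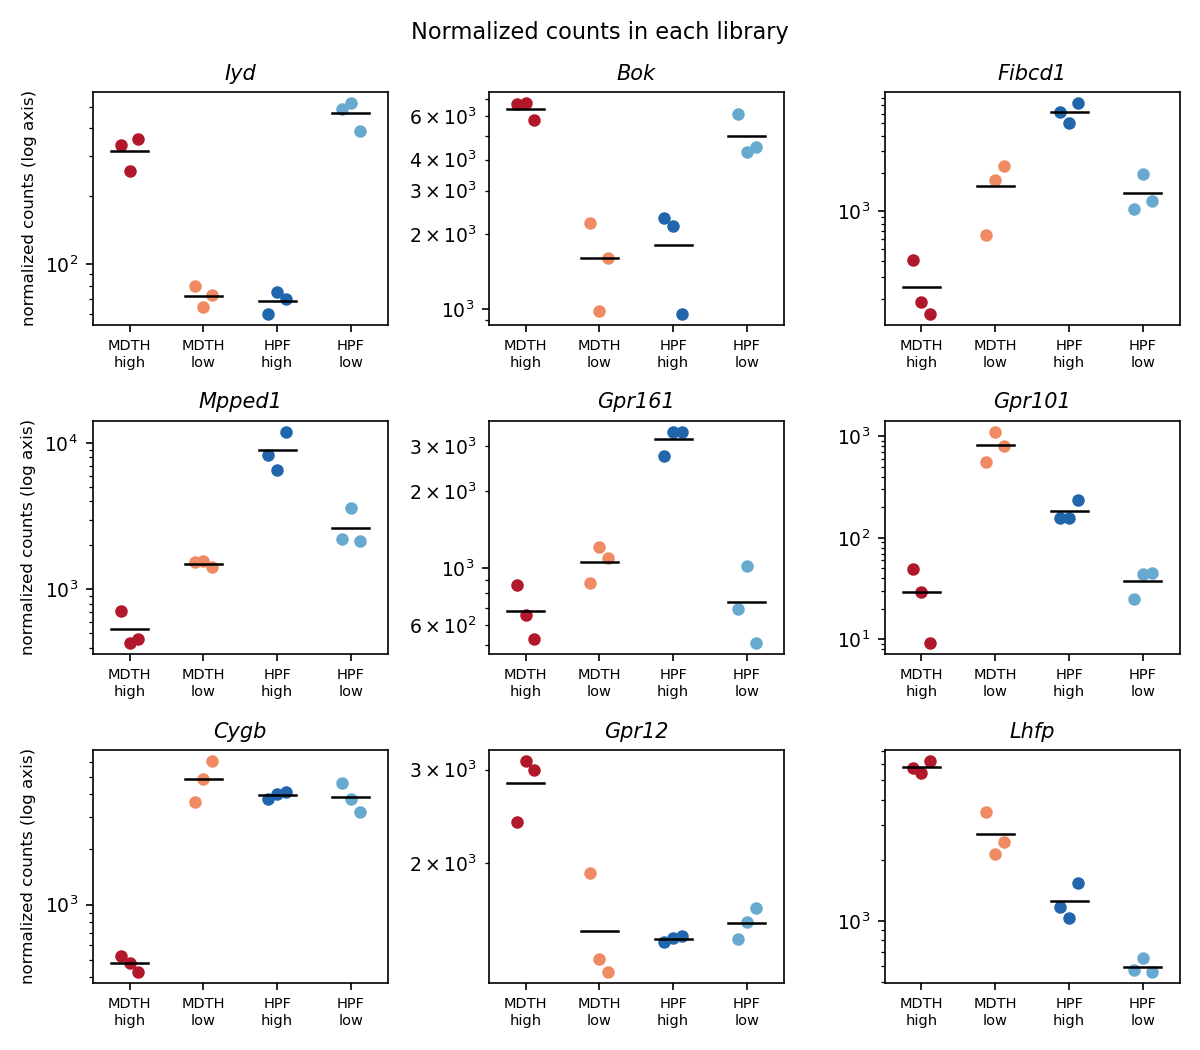
Normalized counts of 9 genes in each of the 12 libraries on log axes, points for libraries and black lines for group means (n = 3). In Iyd and Bok the high group is the upper one in MDTH and the lower one in HPF, in Fibcd1, Mpped1 and Gpr101 the order is reversed, in Gpr161 the wide gap is in HPF, in Cygb and Gpr12 it is in MDTH, and in Lhfp high performers are the upper group in both tissues.

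Only 54 of the 3284 genes also passed in HPF alone, and 10 passed in both tissues: Iyd, Arnt2, Cpne4, Mpped1, Lars2, Sh3gl2, Sorcs1, Nrip3, Brinp1 and Dpf3. In 9 of the 10 the directions were opposite, for which the interaction itself selects. Other genes, Lhfp among them, passed in both tissues in the same direction without passing the interaction. Sh3gl2, the endophilin of synaptic vesicle endocytosis, was 1.66-fold higher in MDTH and 1.72-fold lower in HPF of high performers, with a log2 interaction of 1.52 (SE 0.19, adjusted p = 0.00138). Arnt2, a bHLH-PAS transcription factor of neurons, had 5739, 5210 and 5636 normalized counts in MDTH high, 10025, 12156 and 10585 in MDTH low, 13265, 12359 and 12266 in HPF high and 7589, 9513 and 8520 in HPF low. The 4 groups of Arnt2 formed 2 tight mirrored pairs with no overlap, and its log2 interaction was -1.55 (SE 0.14, adjusted p = 3.11e-04). Sorcs1, a sorting receptor of the Vps10 family, and Lars2, the mitochondrial leucyl-tRNA synthetase, were mirrored too, with log2 interactions of -1.73 and 3.04. Dpf3, a chromatin-remodelling subunit, was the exception: it was lower in high performers in both tissues, 3.81-fold in MDTH and 1.75-fold in HPF, with a log2 interaction of -1.11 (SE 0.21, adjusted p = 0.00605). Nrip3 (adjusted p = 0.0542) and Dpf3 (adjusted p = 0.118) did not pass with lane 4 only.

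Where the HPF difference was the larger, 244 genes had an interaction above 0 and 187 below 0. Gpr161, an orphan receptor of the primary cilium that restrains Hedgehog signalling, held 2754, 3421 and 3416 normalized counts in HPF high and 692, 1019 and 509 in HPF low. In MDTH it held 862, 656 and 530 in high and 874, 1208 and 1097 in low performers. The HPF groups were far apart and the MDTH groups nearly met, and only HPF passed (adjusted p = 0.0107 in HPF and 0.0681 in MDTH). The log2 interaction was -2.81 (SE 0.35, adjusted p = 0.00120). Wfs1, an endoplasmic reticulum protein and a classical marker of CA1 pyramidal cells, was chosen after its values were seen: it was 4.64-fold higher in HPF of high performers and 1.07-fold higher in MDTH. Its 3 HPF high libraries varied widely, at 9019, 10714 and 24581, but all lay above the low libraries at 3211, 4322 and 2009, and the log2 interaction was -2.03 (SE 0.48, adjusted p = 0.0153).

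The larger group of genes moved in MDTH with little difference in HPF. Cygb, a globin known from fibroblast-like cells and a subset of neurons, held 526, 479 and 427 normalized counts in MDTH high against 3643, 4860 and 6122 in MDTH low, and 3193 to 4611 in all 6 HPF libraries. MDTH high performers were 10.2-fold lower while the HPF groups overlapped, and the log2 interaction was -3.38 (SE 0.25, adjusted p = 1.72e-04). Reln, the extracellular matrix protein that guides cortical layering, was 19.0-fold lower in MDTH of high performers, at 106 ± 50.8 against 2007 ± 335, and 1.21-fold higher in HPF, at 2882 ± 894 against 2380 ± 238 (SD, n = 3 each). Vstm2l, a secreted immunoglobulin-domain protein, and Hpcal1, a neuronal calcium sensor, followed the same pattern with log2 interactions of -3.99 and -3.66. Smaller but very even differences were found for Sdc3, a neural heparan sulfate proteoglycan, whose MDTH libraries held 19259, 17738 and 19194 in high and 35992, 34291 and 34712 in low performers. In HPF, Sdc3 was slightly higher in high performers, 8762 ± 198 against 7466 ± 90.6 (SD, n = 3 each), and the log2 interaction was -1.13 (SE 0.08, adjusted p = 1.72e-04). Zim1, an imprinted zinc finger gene, Ltk, a receptor tyrosine kinase, March4, a membrane-bound ubiquitin ligase, and Zmiz1, a transcriptional coactivator, had interactions of -3.05, -1.84, -1.92 and -1.60.

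In the other direction, Cops9, Arpc4, Txn1, Smim7 and Uqcc2 were among the 10 named genes with the smallest p above 0, beside Iyd and Cpne4. Cops9, a subunit of the COP9 signalosome, held 2412, 2663 and 2699 normalized counts in MDTH high and 971, 1001 and 850 in MDTH low, against 2080 to 2376 in HPF high and 2359 to 2715 in HPF low. Its MDTH groups were far apart while its HPF groups overlapped slightly, and its log2 interaction was 1.69 (SE 0.13, adjusted p = 2.51e-04). Txn1, the cytosolic thioredoxin, Arpc4, a subunit of the actin-nucleating Arp2/3 complex, Smim7, a small membrane protein, and Uqcc2, an assembly factor of respiratory complex III, had interactions of 1.14, 0.99, 1.18 and 1.23. All were higher in high performers in MDTH and lower in HPF by at most 0.29 on the log2 scale.

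Gpr12, a constitutively active orphan receptor that raises cAMP, is the thalamic receptor known from this study. The gene lies on chr5:146582398-146585239, minus strand (GENCODE M21, GRCm38). RefSeq gave 2 start windows for it, and only the window nearest the GENCODE start was searched. Its 250 upstream bases (GRCm38.p6, chr5:146585240-146585489, minus strand) are shown because the study centres on this receptor. The motifs searched were the CRE TGACGTCA, the palindromic motif of NRF1 and the TATA box TATAAA, on both strands, with no overlaps between them. None is in this window, so it has no capitals.
Gpr12: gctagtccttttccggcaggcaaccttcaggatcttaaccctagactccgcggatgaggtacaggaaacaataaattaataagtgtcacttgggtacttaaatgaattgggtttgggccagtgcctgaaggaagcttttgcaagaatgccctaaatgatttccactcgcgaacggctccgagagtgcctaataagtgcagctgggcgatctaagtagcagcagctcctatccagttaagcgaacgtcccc
Gpr12 held 2388, 3118 and 2993 normalized counts in MDTH high, 1917, 1325 and 1251 in MDTH low, 1424, 1452 and 1462 in HPF high and 1446, 1550 and 1649 in HPF low. Every MDTH high library lay above all 9 others, and the HPF groups overlapped. The log2 interaction was 1.03 (SE 0.22, adjusted p = 0.00976), made of 0.94 in MDTH (adjusted p = 0.00134) and -0.10 in HPF (adjusted p = 0.837), and with lane 4 only it was 1.11 without passing (adjusted p = 0.146). Its relatives Gpr3 and Gpr6, which also signal through Gs, did not pass, with interactions of 0.16 (adjusted p = 0.818) and -2.47 (adjusted p = 0.164). Of 32 genes of the cAMP pathway downstream of Gs, 4 passed above 0 and 5 below 0, shares of 12.5% and 15.6% against 9.64% and 8.41% of all genes. The 4 were 1 without MDTH high replicate 2, MDTH low replicates 2 or 3, or HPF low replicates 1 or 3, and 2 without MDTH high replicate 3 or HPF high replicates 1 or 2. The 5 were 3 without MDTH low replicate 3 or HPF low replicate 1.

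Among 35 orphan receptors in all, 3 passed above 0 and 4 below 0, shares of 8.57% and 11.4% that lie near the 9.64% and 8.41% of all genes. Gpr101, an X-linked Gs-coupled receptor of hypothalamic and limbic neurons, had a log2 interaction of -7.27 (SE 0.72, adjusted p = 5.16e-04). Its normalized counts were 49.4, 28.9 and 9.17 in MDTH high, 562, 1111 and 794 in MDTH low, 157, 158 and 235 in HPF high and 24.9, 43.7 and 44.6 in HPF low. High performers were 28.2-fold lower in MDTH and 4.86-fold higher in HPF, without overlap, although HPF alone did not pass (adjusted p = 0.0762). Gpr158, a metabotropic glycine receptor, moved little by comparison, 1.32-fold higher in MDTH and 1.31-fold lower in HPF, with a log2 interaction of 0.80 (SE 0.17, adjusted p = 0.0107; 0.0579 with lane 4 only). The count below 0 was 7 without MDTH high replicate 1, 2 without MDTH low replicate 3 and 7 with libraries of 1 name number treated as a block.

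Where members of the habenular list and of the thalamic reticular and zona incerta list passed, they passed below 0. In bulk tissue, fewer cells of a type and less RNA per cell cannot be told apart. Of 19 tested habenular genes, 7 passed below 0 (36.8%, against 8.41% of all genes), none above, and 12 did not pass. Their median interaction was -3.21. All 19 had an MDTH difference below 0 and 16 an HPF difference above 0. Without MDTH low replicate 1, 13 passed below 0, and with the name-number block 14. Pou4f1, the transcription factor that defines medial habenular neurons, was chosen after its values were seen. Its MDTH levels were 10.4, 54.2 and 31.1 in high and 169, 1335 and 3105 in low performers, and it stayed at 0.38 to 31.3 in HPF. The MDTH low libraries spanned a wide range yet lay above all others, and the log2 interaction was -7.27 (adjusted p = 0.00941). Lmo3, a LIM-domain transcriptional cofactor, and Tac1, the substance P precursor, had interactions of -2.83 and -3.44. Lmo3 was far higher in HPF, at 10124 ± 2140 in high and 9224 ± 502 in low performers. Its MDTH levels were 289 ± 53.7 and 1914 ± 429 (SD, n = 3 each). In lane 4 alone, 1 habenular gene passed, while Pou4f1 (adjusted p = 0.140) and Tac1 (adjusted p = 0.108) did not.

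Thalamic reticular and zona incerta genes, most of them GABAergic, showed the same side. Of 19, 7 passed below 0 (36.8%, against 8.41% of all genes), none above, and 12 did not pass. The median interaction was -2.11. Gad2, a GABA-synthesizing enzyme, held 536, 495 and 437 normalized counts in MDTH high and 9547, 2839 and 2457 in MDTH low, but 6669 to 9315 in all HPF libraries. The low library with the highest Gad2 was replicate 1, and all 3 low libraries lay far above the high ones. Its log2 interaction was -3.24 (SE 0.55, adjusted p = 0.00410), and that of Pax6, a patterning transcription factor, was -2.11 (SE 0.36, adjusted p = 0.00448). Neither passed with lane 4 only (adjusted p = 0.100 for Gad2 and 0.0569 for Pax6).

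The summed level of these lists moved with performance in MDTH. The habenular list summed to 36717 to 43411 in MDTH high and 52190 to 73636 in MDTH low, and the reticular list to 3947 to 4173 and 9105 to 27619. In HPF the habenular list summed to 23982 to 29902. The reticular list summed to 29462 to 38161 there, above every MDTH library, so neither list is particular to MDTH. In MDTH the relay neuron list went the other way, 492373 to 572838 in high against 288857 to 394633 in low performers. Its members did not all rise: 16 of 24 MDTH differences lay above 0 and 8 below. In MDTH 10 passed as higher and 2 as lower in high performers (14.5% and 14.6% of all genes did). The part of these lists in the interactions was not tested. Of 24 relay genes, 3 passed above 0 and 1 below 0, shares of 12.5% and 4.17% against 9.64% and 8.41% of all genes. The median difference was 0.67 in MDTH and 0.69 in HPF, where 21 of 24 lay above 0 but none passed. Without MDTH low replicate 1, 5 passed above 0. The count below 0 was 4 without HPF high replicate 2, 2 without HPF high replicate 3, 1 without HPF low replicate 1, MDTH low replicate 1 or MDTH high replicate 1, 0 without any of the other libraries, and 3 with the name-number block. Prkcd, a protein kinase C isoform abundant in relay neurons, had the largest value, 71132 ± 14669 in MDTH high against 19958 ± 10516 in MDTH low, and 2285 ± 1479 in HPF high against 7220 ± 1333 in HPF low (SD, n = 3 each). Its log2 interaction was 3.84 (SE 0.68, adjusted p = 0.00505). Ptpn3, a cytoskeleton-linked tyrosine phosphatase, was 3.30-fold higher in MDTH and 1.03-fold higher in HPF of high performers, with a log2 interaction of 1.73 (SE 0.34, adjusted p = 0.00749; 0.150 with lane 4 only).

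**Figure D3:**
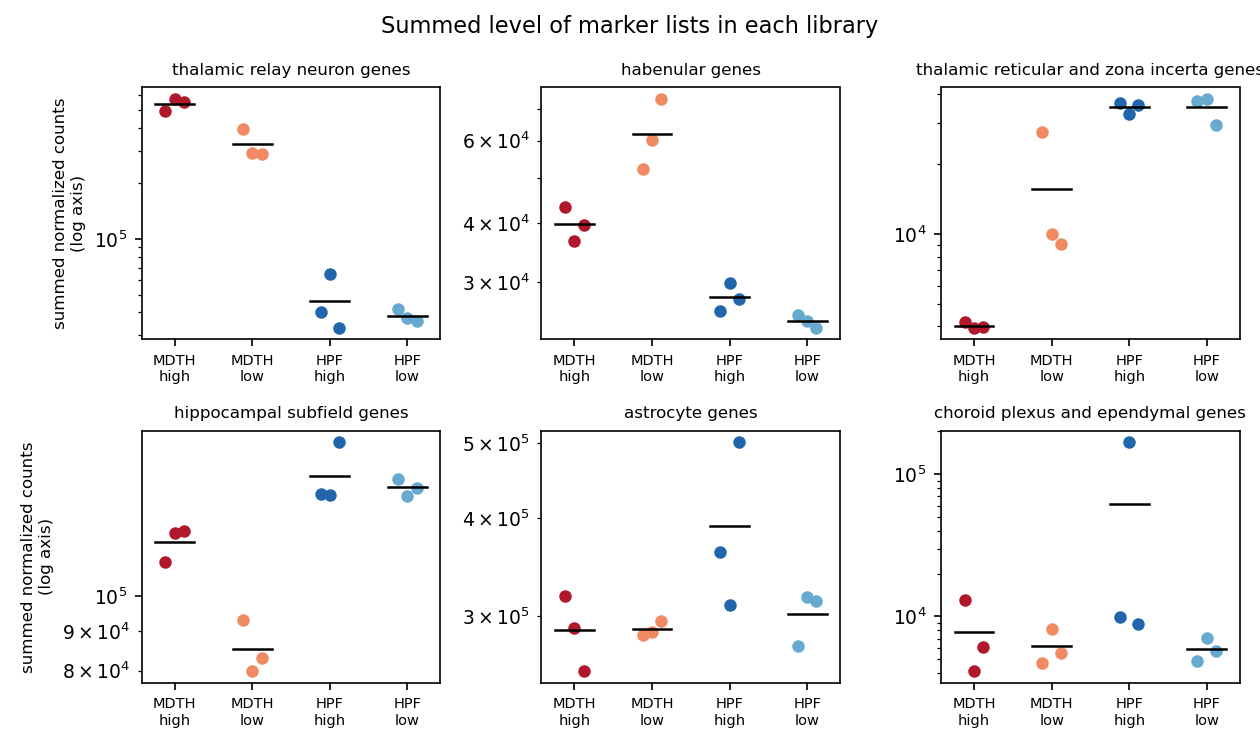
Summed normalized counts of 6 marker lists in each library, on log axes, with points for libraries and lines for group means (n = 3). The relay list is higher and the habenular and reticular lists are lower in MDTH high than in MDTH low, and 1 HPF high library stands far above all others in the choroid plexus list, at 167356.

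Of the serotonin receptors, 5 of 12 passed below 0 (41.7%, against 8.41% of all genes), none above, with a median interaction of -2.71. Htr2a, a Gq-coupled receptor, held 26.0, 19.7 and 17.0 normalized counts in MDTH high and 334, 438 and 478 in MDTH low, against 261 to 342 in HPF high and 289 to 564 in HPF low. It was 19.9-fold lower in MDTH of high performers while the HPF groups overlapped, and its log2 interaction was -3.76 (SE 0.39, adjusted p = 5.51e-04). Htr1a, the Gi-coupled receptor abundant in hippocampus, held 19.6 to 22.4 in MDTH high and 175 to 357 in MDTH low, and 1376 to 3086 in HPF high and 1478 to 1892 in HPF low, with a log2 interaction of -3.80 (SE 0.42, adjusted p = 7.10e-04). Htr1b, chosen after its values were seen, was 3.72-fold lower in MDTH (adjusted p = 0.0225) and 4.57-fold higher in HPF of high performers, where it did not pass (adjusted p = 0.148), with a log2 interaction of -4.71 (SE 0.95, adjusted p = 0.00865; 0.0834 with lane 4 only).

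Receptors for fast transmission had members on both sides. Of 14 GABA-A receptor subunits, 3 passed above and 3 below 0 (21.4% each, against 9.64% and 8.41% of all genes). Gabra4, a subunit of extrasynaptic thalamic receptors, rose 3.03-fold in MDTH and was 1.06-fold higher in HPF (log2 interaction 1.55, SE 0.33, adjusted p = 0.0103), while Gabrq, a subunit of brainstem and hypothalamic neurons, had an interaction of -4.18 (SE 0.81, adjusted p = 0.00701). Of 24 glutamate receptors, 4 passed above and 3 below 0, shares of 16.7% and 12.5% against 9.64% and 8.41% of all genes. Grin2b, an NMDA receptor subunit, and Gria3, an AMPA receptor subunit, had interactions of 1.10 and 1.21 and were both 2.33-fold higher in MDTH of high performers. The 3 below 0 fell to 1 without any one of MDTH high replicate 2, MDTH low replicates 2 and 3, and HPF low replicate 2, and were 5 with the name-number block. With lane 4 only, Gabra4 (adjusted p = 0.136), Gabrq (adjusted p = 0.0646), Grin2b (adjusted p = 0.0815) and Gria3 (adjusted p = 0.148) did not pass.

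Ion channels for firing pattern split by family member. Of 28 potassium channels, 7 passed above 0 (25%, against 9.64% of all genes) and 5 below 0 (17.9%, against 8.41%). The 7 were 3 without MDTH low replicate 3 and 4 without MDTH high replicates 2 or 3, HPF high replicate 3 or HPF low replicate 2, and the 5 were 3 without MDTH high replicates 2 or 3, MDTH low replicate 2 or HPF high replicate 3. Within the Kv3 family, which permits fast repolarization, Kcnc1 and Kcnc2 had interactions of 1.17 and 1.85, and Kcnc4 one of -2.31 (SE 0.24, adjusted p = 5.51e-04). Kcnc4 held 1098, 770 and 940 normalized counts in MDTH high and 3680, 4376 and 3603 in MDTH low, while its HPF libraries overlapped at 2992 to 4979. T-type calcium and HCN channels shape thalamic burst firing. Of 7, 4 passed below 0 (57.1%, against 8.41% of all genes) and none above. In MDTH, 3 of the 7 differences lay above 0 and 4 below. The summed list overlapped there, at 36900 to 41665 in high and 34131 to 41796 in low performers. The 4 passing were 2 without MDTH high replicate 2, MDTH low replicates 2 or 3, HPF high replicate 2, or HPF low replicates 1 or 3. Cacna1h and Cacna1i, T-type channel subunits, had interactions of -1.38 and -2.26. With lane 4 only, Kcnc1 (adjusted p = 0.128), Kcnc2 (adjusted p = 0.108) and Cacna1i (adjusted p = 0.113) did not pass.

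Nuclear-encoded subunits of the respiratory chain had the largest shares passing above 0 of the 34 lists. Of 37 subunits of complex I, the NADH dehydrogenase, 26 passed above 0 and none below, with a median interaction of 0.54. Of 34 subunits of complexes III to V, 26 passed above 0 and none below, with a median of 0.60, against a background of 9.64% above 0. In MDTH, 26 of each list passed as higher in high performers (14.5% of all genes did). In HPF none passed, but 34 of 37 and 31 of 34 differences lay below 0, with medians of -0.10 and -0.12. Leaving out 1 library kept the counts above 0 at 20 to 26 and 23 to 27. With lane 4 only, when 276 genes passed in all, 2 of each list passed and the medians were 0.53 and 0.56.

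Ndufa4, listed with complex I and also assigned to complex IV, held 10351, 12109 and 11270 normalized counts in MDTH high, 5646, 5066 and 4737 in MDTH low, 9112, 8041 and 8229 in HPF high and 10573, 9562 and 9495 in HPF low. High performers were the upper group in MDTH and the lower group in HPF, without overlap in either, and the log2 interaction was 1.35 (SE 0.13, adjusted p = 4.00e-04). Ndufs3, a core subunit, was 1.66-fold higher in MDTH and 1.10-fold lower in HPF of high performers (log2 interaction 0.86, SE 0.10, adjusted p = 7.64e-04). Ndufs4, an accessory subunit of complex I, had an interaction of 1.05. Uqcrfs1, the Rieske iron-sulfur protein of complex III, and Cox7a2, a small subunit of complex IV, had interactions of 0.96 and 0.86. Atp5e, the epsilon subunit of ATP synthase, was chosen after its values were seen and had an interaction of 1.56 (SE 0.23, adjusted p = 0.00233). With lane 4 only, Ndufs3 (adjusted p = 0.0514), Ndufs4 (adjusted p = 0.0572), Cox7a2 (adjusted p = 0.0595) and Atp5e (adjusted p = 0.0882) did not pass. Many of these small genes have near-identical processed copies in the genome, and how shared reads were assigned is not given in the sources used here.

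Promoters of 33 complex I genes, 26 genes of complexes III to V and 25 proteasome genes were matched in RefSeq. The NRF1 motif, bound by a regulator of nuclear mitochondrial genes, stood in the 250 upstream bases of 3 of the 26 complex III to V genes (11.5%), 1 of the 33 complex I genes (3.03%) and 1 of the 25 proteasome genes, and in 1.48% of 12566 matched tested genes. The CRE, bound by CREB, stood in 3 of 33 complex I genes (9.09%), 1 of 26 complex III to V genes and 0 of 25 proteasome genes, and in 2.56% of all. A match describes letters in the window only. The 2 complex I promoters below are printed because their genes passed and carry these motifs, which are in capitals (GRCm38.p6, plus strand, chr17:56717512-56717761 for Ndufa11 with a CRE and then an NRF1 motif, and chr6:39592315-39592564 for Ndufb2 with a CRE).
Ndufa11: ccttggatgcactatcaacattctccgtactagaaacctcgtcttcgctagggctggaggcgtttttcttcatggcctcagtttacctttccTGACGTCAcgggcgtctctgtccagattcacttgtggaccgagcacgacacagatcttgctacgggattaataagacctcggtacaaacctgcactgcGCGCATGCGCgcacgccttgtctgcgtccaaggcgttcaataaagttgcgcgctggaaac
Ndufb2: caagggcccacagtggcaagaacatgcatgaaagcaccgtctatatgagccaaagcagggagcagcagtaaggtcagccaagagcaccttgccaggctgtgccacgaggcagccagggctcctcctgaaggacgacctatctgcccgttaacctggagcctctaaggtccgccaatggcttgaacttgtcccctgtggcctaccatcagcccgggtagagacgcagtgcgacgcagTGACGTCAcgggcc
Ndufa11 and Ndufb2, accessory subunits chosen for these motifs, had log2 interactions of 0.38 (SE 0.09, adjusted p = 0.0186) and 0.87 (SE 0.19, adjusted p = 0.0105). Neither passed with lane 4 only (adjusted p = 0.191 and 0.125), and Ndufa11 did not pass without MDTH low replicate 3 (adjusted p = 0.0515).

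Proteasome subunits, which degrade ubiquitin-tagged proteins, followed the respiratory chain: 20 of 31 passed above 0 (64.5%, against 9.64% of all genes) and none below. Their median interaction was 0.45. In MDTH, 17 passed as higher and 3 as lower in high performers (14.5% and 14.6% of all genes did). Among the respiratory subunits none passed as lower in MDTH. All 31 HPF differences lay below 0, none of them passing, at a median of -0.16. Psmb4 of the core particle held 4230, 4286 and 4318 normalized counts in MDTH high and 2440, 2534 and 2521 in MDTH low, but 3926 to 4150 in HPF high and 4170 to 4493 in HPF low. Groups did not overlap in either tissue, the MDTH gap was the wider, and the log2 interaction was 0.86 (SE 0.08, adjusted p = 5.16e-04). Psmb7 of the core and Psmd6 of the regulatory particle had interactions of 0.89 and 0.84. Without 1 library, 15 to 20 passed above 0, and with lane 4 only 5 did.

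Cytosolic ribosomal proteins did not share this pattern in the interaction, with 6 of 58 above 0 (10.3%, near the background) and 2 below 0 (3.45%, against 8.41% of all genes). In MDTH alone, 20 passed as higher and 5 as lower in high performers (14.5% and 14.6% of all genes did). Of the HPF differences, 46 lay above 0 and 12 below, none passing. The 2 below 0 became 4 without HPF high replicate 1 and 1 without any other library except HPF high replicate 2, HPF low replicate 3 and MDTH high replicate 2, and 4 with the name-number block. Quantile normalization gave 3 above and 5 below 0, with a median of -0.03 against 0.11. Rpl22l1, which resembles the ribosomal protein Rpl22, was 2.77-fold higher in MDTH and 1.14-fold higher in HPF of high performers, with a log2 interaction of 1.27 (SE 0.15, adjusted p = 9.15e-04).

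Genes encoded in mitochondrial DNA lay on the opposite side from the nuclear subunits. Of 13, 5 passed below 0 (38.5%, against 8.41% of all genes) and none above, with a median of -0.84. All 13 genes had HPF differences above 0, none passing. All genes with an mt- symbol form a wider set than these 13. Their share of all normalized counts was 5.91% ± 0.444 in MDTH high and 7.72% ± 1.06 in MDTH low. It was 7.44% ± 1.08 in HPF high and 5.68% ± 0.884 in HPF low (SD, n = 3 each). The count of 5 was 1 to 3 without any 1 library other than MDTH low replicate 1, HPF high replicate 2 and HPF low replicate 3, and 2 under quantile normalization, with a median of -0.38. Cytochrome b, mt-Cytb, held 418373 to 451441 in MDTH high, 521507 to 543983 in MDTH low, 453591 to 652407 in HPF high and 332540 to 383515 in HPF low. Its groups were ordered oppositely without overlap, and its log2 interaction was -0.88 (SE 0.21, adjusted p = 0.0168), but it did not pass under quantile normalization (adjusted p = 0.555) or with lane 4 only (adjusted p = 0.0634).

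**Figure D4:**
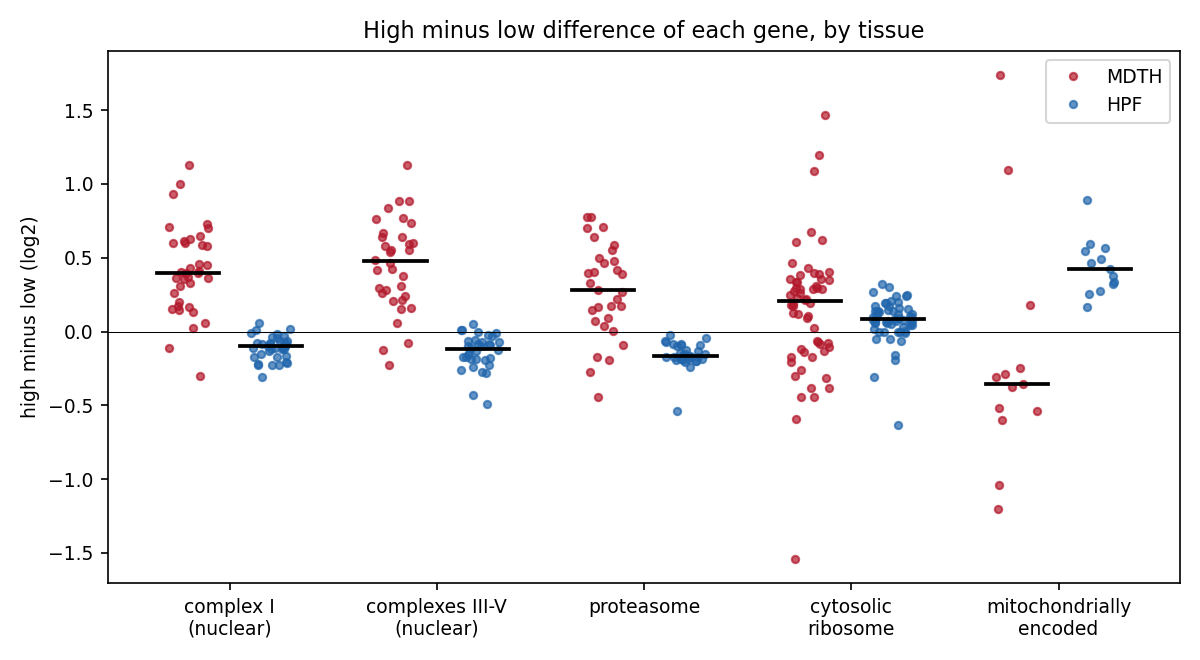
High minus low difference (log2) of each member of 5 gene lists in MDTH (red) and HPF (blue), with 1 point per gene and black lines for list medians. Complex I, complexes III to V and the proteasome lie mostly above 0 in MDTH and mostly below 0 in HPF, the ribosome medians are above 0 in both, and the mitochondrially encoded genes have all 13 HPF values above 0 and most MDTH values below 0.

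Of 25 synaptic vesicle release genes, 13 passed above 0 (52%, against 9.64% of all genes) and 3 below 0 (12%, against 8.41%). Their median interaction was 0.54. Here the HPF side contributed: 22 of 25 HPF differences lay below 0, with a median of -0.42 against 0.12 in MDTH. Snap25, a SNARE of vesicle fusion and chosen after its values were seen, was the 1 member that passed in HPF. It held 104008, 94786 and 73078 normalized counts in HPF high and 180242, 160596 and 144994 in HPF low, without overlap, while in MDTH the groups overlapped at 123736 to 178972. Its log2 interaction was 1.06 (SE 0.21, adjusted p = 0.00865), and Syt1, the calcium sensor of release, and Sv2b, a vesicle glycoprotein, had 0.89 and 2.02. Syn3, a synapsin, and Sv2c, a vesicle glycoprotein of subcortical neurons, went the other way, at -2.07 and -3.84. The 13 above 0 were 7 without MDTH low replicate 3, 8 without HPF high replicate 3, 8 without HPF low replicate 1, and 8 under quantile normalization. With lane 4 only, Snap25 (adjusted p = 0.0646), Syt1 (adjusted p = 0.0834), Syn3 (adjusted p = 0.0586) and Sv2c (adjusted p = 0.123) did not pass.

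Immediate-early genes are switched on in neurons after activity. Of 32, 7 passed below 0 (21.9%, against 8.41% of all genes) and 1 above 0 (3.12%, against 9.64%), with a median of -0.39. Leaving out any 1 library except MDTH low replicate 3, which left 5, reduced the 7 to 2 to 4, and 2 passed under quantile normalization or without a filter on low values. The 1 above 0 was 0 to 3 without 1 library and 3 with the name-number block. Nr4a2, an orphan nuclear receptor induced by activity that also belongs to the habenular list, held 127, 129 and 158 normalized counts in MDTH high and 968, 3127 and 7110 in MDTH low. Its HPF libraries overlapped at 815 to 1703, and its log2 interaction was -4.64 (SE 0.76, adjusted p = 0.00359; 0.0801 with lane 4 only). Sik1, a CREB-regulated kinase, held 471 to 666 in MDTH high and 1789 to 2328 in MDTH low against 304 to 477 in HPF, with a log2 interaction of -1.91 (SE 0.27, adjusted p = 0.00190). Fos, the prototype of the class, was 3.74-fold lower in MDTH and 2.03-fold lower in HPF of high performers, and its interaction of -0.87 (SE 0.78) did not pass (adjusted p = 0.480).

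Axon guidance genes split, with 7 of 44 above 0 (15.9%, against 9.64% of all genes) and 12 below 0 (27.3%, against 8.41%). Epha4, an ephrin receptor, was 1.93-fold higher in MDTH and 1.31-fold lower in HPF of high performers (log2 interaction 1.35, SE 0.15, adjusted p = 7.52e-04), whereas Unc5a, a netrin receptor, was 3.49-fold lower in MDTH and 1.10-fold lower in HPF (log2 interaction -1.66, SE 0.23, adjusted p = 0.00174). The 12 below 0 were 6 without MDTH low replicate 2 and 7 without MDTH high replicate 2, MDTH low replicate 3 or HPF low replicate 1.

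Lists of non-neuronal cells differed among themselves. No gene of the oligodendrocyte (20 tested), microglial (16) or endothelial and mural (16) lists passed the interaction, although all 16 microglial and all 16 endothelial genes had an HPF difference above 0 with none passing in limma. At an unadjusted p below 0.05 the interaction counted 4 oligodendrocyte, 3 microglial and 1 endothelial genes, against 5870 of all genes tested (32.3%). Leaving out 1 library gave at most 1 oligodendrocyte, 2 microglial and no endothelial gene. Of 16 astrocyte genes, 5 passed below 0 (31.2%, against 8.41% of all genes), with a median of -0.60 and all HPF differences above 0. That count was 8 without HPF high replicate 2 and 2 or 3 without any other library except MDTH high replicate 1, MDTH low replicate 1 and HPF low replicate 2. The choroid plexus list had a median of -2.18, of which 1 of 16 passed below 0 (6 without MDTH low replicate 1, 2 without HPF high replicate 2 or HPF low replicate 3, none without MDTH high replicates 2 or 3, MDTH low replicates 2 or 3, HPF high replicate 3 or HPF low replicates 1 or 2, and 4 with the name-number block), and its summed level was highest in HPF high replicate 2. Whether these cells had a part in other interactions was not tested.

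**Figure D5:**
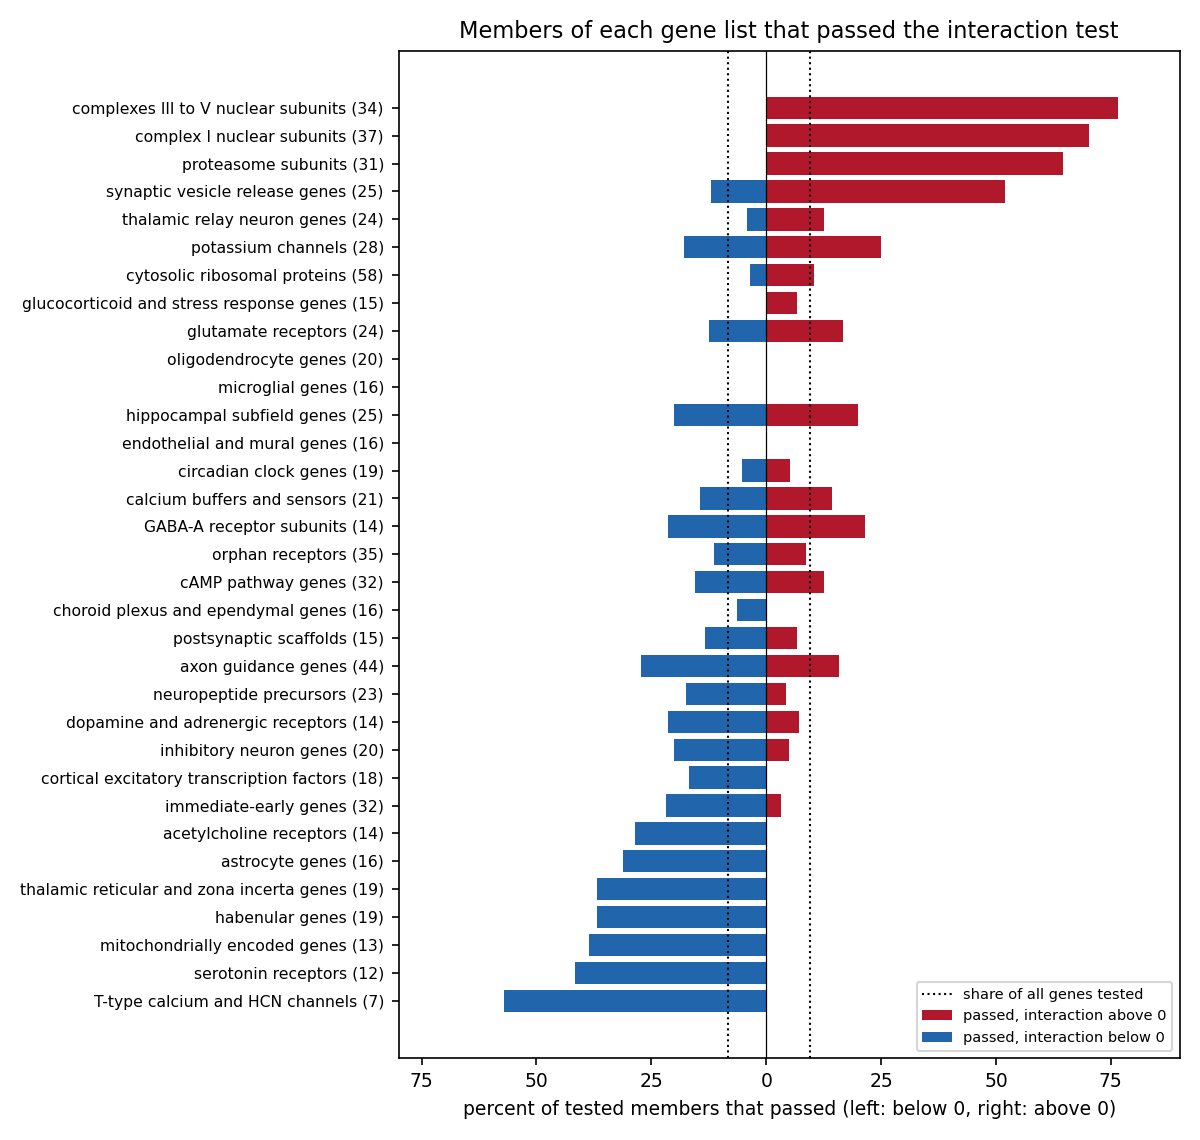
Percent of tested members of each list (number in brackets) that passed the interaction, to the right above 0 and to the left below 0, with dotted lines at the 9.64% and 8.41% of all genes. The respiratory and proteasome lists reach farthest right, and the T-type and HCN channel, serotonin receptor, mitochondrially encoded, habenular, and reticular and zona incerta lists farthest left.

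Beyond the interaction, the mean of both tissues' differences passed for 2798 genes (15.4%), 7.00% of those tested above 0 and 8.38% below 0. Of the 2798, 1484 did not pass the interaction. With libraries of 1 name number treated as a block, 1739 passed. Without MDTH high replicate 2 and MDTH low replicate 3 the counts were 1864 and 1762. Among the 308 whose interaction had an unadjusted p above 0.5, Lhfp, a tetraspan membrane protein, had the smallest p apart from 1 pseudogene and 1 predicted gene. It held 5720, 5419 and 6256 normalized counts in MDTH high and 3459, 2159 and 2470 in MDTH low, and 1172, 1039 and 1536 in HPF high against 567, 654 and 556 in HPF low. High performers were 2.15-fold higher in MDTH and 2.11-fold higher in HPF, without overlap, and the log2 interaction was 0.07 (SE 0.25, 95% interval -0.48 to 0.62). Magt1, a magnesium transport and glycosylation subunit, was also higher in both, while Hk1, the brain hexokinase, Syn1, a synapsin, Rcan1, a calcineurin inhibitor, and Grik4, a kainate receptor subunit, were lower in both. Their log2 interactions lay between -0.23 and 0.11. An interaction that did not pass does not show that the tissues' differences were equal.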

How the data were processed

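The values are normalized counts per gene deposited by the authors, a signal that is scaled and not whole reads. STAR, Salmon and DESeq2 appear without versions or roles in the submitters' processing notes, and the genome build, annotation and use of strand in counting are not given in the sources used here, although the labels name a stranded mRNA kit. Whole reads could not be recovered: 22.0% to 68.1% of low values per library fell within 0.02 of a whole read, so depth is an estimate.

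A limma 3.58.1 model (R 4.3.3) with 4 group means and a mean-variance trend was fitted on log2(normalized count + 1), which understates changes of low genes. Tests were two-sided with Benjamini-Hochberg adjustment over the 18196 genes. Tables were handled with Python 3.11.15 and pandas 2.3.3. The 30244 genes below the minimum mean included 17999 at 0 in all 12 libraries. The fit was tested on simulated data. Of 48440 gene identifiers, 48058 (99.2%) were placed with GENCODE M21, and 381 had no symbol. Promoters came from RefSeq.

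Residuals of libraries with the same name number correlated at 0.407 to 0.498 (4 pairs), against -0.275 to 0.163 for the 32 other pairs, so name numbers pair samples. Replicate numbers in the titles (6 pairs, -0.246 to 0.163) do not. The block on name numbers used limma's duplicateCorrelation (0.318). Alternatives covered 11 settings and 12 fits without 1 library.

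Members and lists were chosen with earlier results of these data known. Named were Gpr12 and, among passing genes with 1 sign in all 12 fits, the 10 smallest p above and the 10 below 0, the 6 with the larger difference in HPF and the 6 with opposite signs each at p below 0.05. Predicted genes, clones, pseudogenes and antisense genes were left out. To these were added the 6 smallest p of the mean effect with an interaction p above 0.5 and the 2 smallest interaction p of each list, of which not all are printed. Bok, Fibcd1, Wfs1, C1ql2, Gpr3, Gpr158, Pou4f1, Htr1b, Kcnc1, Kcnc2, Sv2b, Snap25, Syt1, Ndufs4, Ndufa11, Ndufb2, Atp5e, Psmd6, Sorcs1, Nrip3, Brinp1, Dpf3 and Fos were chosen after their values were seen.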

Additional observations from a re-analysis of the deposited data

Results flagged for a closer look

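The high minus low difference itself differed between MDTH and HPF for 3284 genes by the interaction test in limma, and for each named gene below. Values are log2 interactions, MDTH minus HPF, and the report gives the libraries behind them.

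Above 0, the widest gaps were those of Iyd (4.87), Prkcd (3.84), Bok (3.62), Lars2 (3.04), Cpne4 (2.13), Nrip3 (2.13), Sv2b (2.02), Kcnc2 (1.85), Ptpn3 (1.73), Cops9 (1.69), Atp5e (1.56), Gabra4 (1.55) and Sh3gl2 (1.52). Intermediate values were found for Ndufa4 (1.35), Epha4 (1.35), Rpl22l1 (1.27), Uqcc2 (1.23), Gria3 (1.21), Smim7 (1.18), Kcnc1 (1.17), Txn1 (1.14), Grin2b (1.10), Brinp1 (1.08), Snap25 (1.06), Ndufs4 (1.05) and Gpr12 (1.03). The narrowest were those of Arpc4 (0.99), Uqcrfs1 (0.96), Syt1 (0.89), Psmb7 (0.89), Ndufb2 (0.87), Ndufs3 (0.86), Psmb4 (0.86), Cox7a2 (0.86), Psmd6 (0.84), Gpr158 (0.80) and Ndufa11 (0.38).

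Below 0, the widest gaps were those of Pou4f1 (-7.27), Gpr101 (-7.27), Fibcd1 (-4.78), Htr1b (-4.71), Nr4a2 (-4.64), Reln (-4.58), Gabrq (-4.18), Vstm2l (-3.99), Sv2c (-3.84), Htr1a (-3.80), Htr2a (-3.76) and Hpcal1 (-3.66). Intermediate values were found for Tac1 (-3.44), Cygb (-3.38), Mpped1 (-3.28), Gad2 (-3.24), Zim1 (-3.05), Lmo3 (-2.83), Gpr161 (-2.81), Kcnc4 (-2.31), Cacna1i (-2.26), C1ql2 (-2.14), Pax6 (-2.11) and Syn3 (-2.07). The narrowest were those of Wfs1 (-2.03), March4 (-1.92), Sik1 (-1.91), Ltk (-1.84), Sorcs1 (-1.73), Unc5a (-1.66), Zmiz1 (-1.60), Arnt2 (-1.55), Cacna1h (-1.38), Sdc3 (-1.13), Dpf3 (-1.11) and mt-Cytb (-0.88). No cause of these differences was tested.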

How the results depend on the processing

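The interaction count of 3284 was 276 with HPF lane 4 only and 2022 to 3418 without 1 library. Treating libraries of 1 name number as a replicate block gave 4582, and the title number as a replicate block gave 2884. All 3284 genes also passed with the name-number block. The mean effect count of 2798 was 90 with lane 4 only, 1739 with the name-number block and 1762 to 2865 without 1 library. The MDTH count of 5293 was 3521 to 5341 without 1 library. The HPF count of 68 was 36 without a filter on low values, 6 without the mean-variance trend, 117 with array quality weights, 264 with all 18 libraries, 11 with lane 4 only and 8 to 71 without 1 library. Lane 4 leaves 1 HPF library a group, whose spread is assumed to be like that of MDTH. Beyond that construction, the cause was not tested.

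Interactions that did not pass changed sign in some fits. Lhfp was -0.33 with lane 4 only and -0.0737 to 0.266 without 1 library. Hk1 was -0.0950 to 0.0189 without 1 library. Syn1 was -0.34 under quantile normalization and -0.10 to 0.12 without 1 library. Grik4 was 0.36 with lane 4 only and -0.57 to 0.0603 without 1 library. Gpr3 was -0.0494 to 0.40 without 1 library. The number of libraries (3 a group), unequal depth between tissues and unknown counting settings limit precision.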
